A study of Mus musculus with 4 samples.

Results

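Antisense transcripts are RNAs made from the DNA strand opposite to a coding gene. The genes described here are those typed antisense in the deposited tables whose normalized count, averaged over the 4 libraries, was at least 2. By this rule 100 genes were chosen, out of 668 antisense genes and 18324 genes in all with a normalized count. Gm26825 and Gm15459 were to be left out by name, but neither is typed antisense, so no member was lost. The members were thus selected on their measured level, which is given as a description. Just inside the threshold lay 2610020C07Rik, Runx2os1 and Gm5106, with means of 2.00, 2.01 and 2.02. Just outside it were Gm31597, Gm17590 and 0610040B10Rik, with 1.98, 1.97 and 1.97.

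The libraries were made from group 2 innate lymphoid cells (ILC2s), lymphocytes without antigen receptors that answer IL-33 with type 2 cytokines, sorted from the lungs of mice aged 6 weeks after 3 intranasal doses of 0.5 µg rm-IL33. There were 2 libraries from wildtype C57BL/6 mice (WT) and 2 from mice labelled ICAM-1 KO, which carry a germline Icam1 tm1Jcgr allele on a C57BL/6 background. Every animal received rm-IL33, no unchallenged group was analysed here, and each library is a pool of several mice, so the spread between libraries is not that between animals. Icam1 had normalized counts of 85.2 and 83.3 in WT and 97.6 and 110.03 in the ICAM-1 KO libraries. Its log2 fold change was 0.33 (SE 0.108, adjusted p = 0.0745 by the quasi-likelihood test of edgeR), so its RNA was not lower there. For its ICAM-1 deficient mice the paper reports a lack of ICAM-1 protein on lung ILC2s, by flow cytometry after the same challenge. RNA level does not measure the protein, and these libraries are called KO-labelled throughout. Gm47079, the antisense gene over the end of Icam1, had estimated counts of 0 in WT and 4.30 and 9.37 in the others, and is no member. The nearest member to Icam1 on chromosome 9 was Gm16214, 20.99 Mb away.

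Depth ran from 24796148 to 28782471 counts per library, of which the members took 0.0802 to 0.0958%. All 14 ILC2 markers were detected, 2 of them called higher and 5 lower, with summed normalized counts of 8946 and 9459 in WT and 7610 and 7805 in the KO-labelled libraries. Markers of other cells were higher in the KO-labelled libraries in several lists, namely 9 of 9 endothelial, 6 of 9 macrophage and monocyte, 5 of 10 T cell, 4 of 7 B cell and 3 of 5 neutrophil genes tested, and none of these lists had a gene called lower. Of the epithelial genes tested 3 of 7 were higher, with sums of 416 and 187 in WT against 525 and 1324, and of the fibroblast genes 0 of 5. Among 5 eosinophil genes tested 2 were higher and 2 lower, and the summed level of that list was 99.7 and 75.9 in WT against 25.9 and 44.7. The summed level of the endothelial list was 151 and 154 in WT against 374 and 398, that of the T cell list 621 and 833 against 1097 and 1301. For macrophages and monocytes it was 489 and 492 against 829 and 1041, for B cells 240 and 385 against 579 and 698, and for neutrophils 66.9 and 74.0 against 164 and 120. Their part in the changes of the antisense genes was not tested, and in bulk RNA fewer cells of a type and less RNA per cell cannot be told apart.

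Antisense transcripts may act on the gene they cross, by recruiting chromatin modifiers or by transcription through its promoter, or in trans, and many have no known role. Some of the best known belong to the members. Tsix runs across Xist and holds it silent on the future active X chromosome in early embryos. Kcnq1ot1 is made from the paternal allele and silences imprinted neighbours of the potassium channel gene Kcnq1. Flicr lies at the start of Foxp3, the master regulator of regulatory T cells, and is known to restrain it in those cells. The reads came from a library kit that does not mark strand. Where exons of a member and of the coding gene across it overlap, their reads thus cannot be told apart. Outside these exons too, no read shows the strand it came from.

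RefSeq promoter windows, 250 bases before to 50 after a transcript start, were held for 50 of the 100 members. They are shown for the 4 members with a called change and a window, so that the sequence at the starts of these little-known transcripts can be seen. Each is written 5′ to 3′ on the gene's own strand in GRCm38.p6, with CG dinucleotides in capitals. A530040E14Rik (chr1:85105843-85106142, plus strand), Gm26740 (chr10:22302789-22303088, minus strand) and Gm15987 (chr6:128974980-128975279, minus strand) have starts 147, 3 and 0 bases from those of the deposited coordinates. The window of 1600020E01Rik (chr6:86527080-86527379, plus strand) belongs to a start 1083 bases inside the deposited gene.
A530040E14Rik: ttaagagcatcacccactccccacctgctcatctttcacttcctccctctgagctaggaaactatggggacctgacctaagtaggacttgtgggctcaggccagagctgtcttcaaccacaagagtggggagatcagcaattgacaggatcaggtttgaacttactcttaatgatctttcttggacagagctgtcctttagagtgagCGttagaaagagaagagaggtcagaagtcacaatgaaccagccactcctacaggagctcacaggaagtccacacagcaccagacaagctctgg
Gm26740: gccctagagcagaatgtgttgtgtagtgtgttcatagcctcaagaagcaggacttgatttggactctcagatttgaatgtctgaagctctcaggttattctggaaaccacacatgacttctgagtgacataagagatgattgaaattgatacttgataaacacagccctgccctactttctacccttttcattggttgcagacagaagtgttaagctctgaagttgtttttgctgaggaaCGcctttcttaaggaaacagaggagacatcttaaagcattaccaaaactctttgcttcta
Gm15987: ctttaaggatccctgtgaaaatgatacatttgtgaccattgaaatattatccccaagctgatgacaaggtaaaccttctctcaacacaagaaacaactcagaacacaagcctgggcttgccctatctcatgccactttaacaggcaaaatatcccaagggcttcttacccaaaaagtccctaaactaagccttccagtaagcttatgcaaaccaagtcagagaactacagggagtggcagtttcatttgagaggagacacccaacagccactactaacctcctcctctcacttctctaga
1600020E01Rik: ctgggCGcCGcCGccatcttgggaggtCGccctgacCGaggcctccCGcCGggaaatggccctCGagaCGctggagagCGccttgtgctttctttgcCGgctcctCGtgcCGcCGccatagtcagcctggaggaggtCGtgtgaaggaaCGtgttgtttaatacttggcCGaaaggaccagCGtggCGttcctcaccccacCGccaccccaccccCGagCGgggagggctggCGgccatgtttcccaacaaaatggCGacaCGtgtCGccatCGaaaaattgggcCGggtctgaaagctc

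The windows of A530040E14Rik and Gm26740 held 1 CG each and that of Gm15987 none, whereas 1600020E01Rik held 28. Of all 32851 windows 14.1% had at most 1 CG, and of the 50 member windows 4 (8.0%) did. At least 20 CG were found in 24 member windows (48.0%) and in 26.5% of all windows. The member windows are 1 per gene, from genes chosen by their level. All windows were not chosen by level, so the shares come from unlike sets. Members whose 5′ end overlaps the 5′ end of the coding gene had a median of 21 CG (13 windows), against 6 for those lying wholly inside it (19 windows). Read on both strands, the letters TATAAA occurred in 4 member windows (8.0%) and 13.6% of all windows. The letters AGATAA occurred in 0 member windows and 11.2% of all. Neither motif was in the windows printed, and a match or its lack describes only these letters.

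The members were mostly weakly expressed. Their median normalized count was 3.70, with a range of 2.00 to 75.5. Only 16 reached 10, while 38 lay under 3, and the 5 highest held 37.1% of the summed level. Per kilobase of exon, which allows levels of genes to be compared, the median was 2.08 for 97 members with known exons, and 6.31 for 10776 coding genes above the same threshold. The highest level per kilobase was 47.3, for Gm37401, 93.4% of whose 347 exon bases lie in exons of the opposite strand, where its partner Rhoa, a GTPase of the cytoskeleton, is encoded. Gm44851 (31.3 per kilobase) and 4931406G06Rik (20.2) followed.

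Tsix had the highest mean normalized count, with 74.0 and 59.8 in WT and 69.5 and 98.9 in the KO-labelled libraries. Xist, the RNA across it that coats the inactive X chromosome, had 105.9 and 140.6 in WT and 120.1 and 118.5 in the others. The groups overlapped for both genes, and neither was called (adjusted p = 0.208 and 0.936 by edgeR). The strand of the reads counted for Tsix is unknown, and 32.6% of its exon bases lie in exons of the opposite strand.

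Gm44851 overlaps the 5′ end of Furin, a protease that cuts precursor proteins. It had 93.9 and 71.1 in WT and 59.4 and 65.1 in the KO-labelled libraries, where both values were below WT, yet it was not called (log2 fold change -0.38, SE 0.147, adjusted p = 0.119 by edgeR). Furin itself fell by 0.58 on the log2 scale (SE 0.0903, adjusted p = 0.00538 by edgeR). Brip1os, over the Integrator subunit gene Ints2, ranged from 50.5 to 62.04 without separation of the groups. Tug1, a long RNA conserved across mammals, had 46.9 and 50.1 in WT and 65.4 and 57.02 in the other libraries (log2 fold change 0.36, SE 0.124, adjusted p = 0.0858 by edgeR). Kcnq1ot1 stayed between 32.1 and 40.6 in the 4 libraries. Kcnq1, the gene it crosses, was at 0.0660 to 3.86, and was not tested. Rab10os, A630072M18Rik, Gm37401 and Gt(ROSA)26Sor, the transcript of the locus used for knock-in transgenes, had means of 16.3 to 23.5 and no call.

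**Figure D1:**
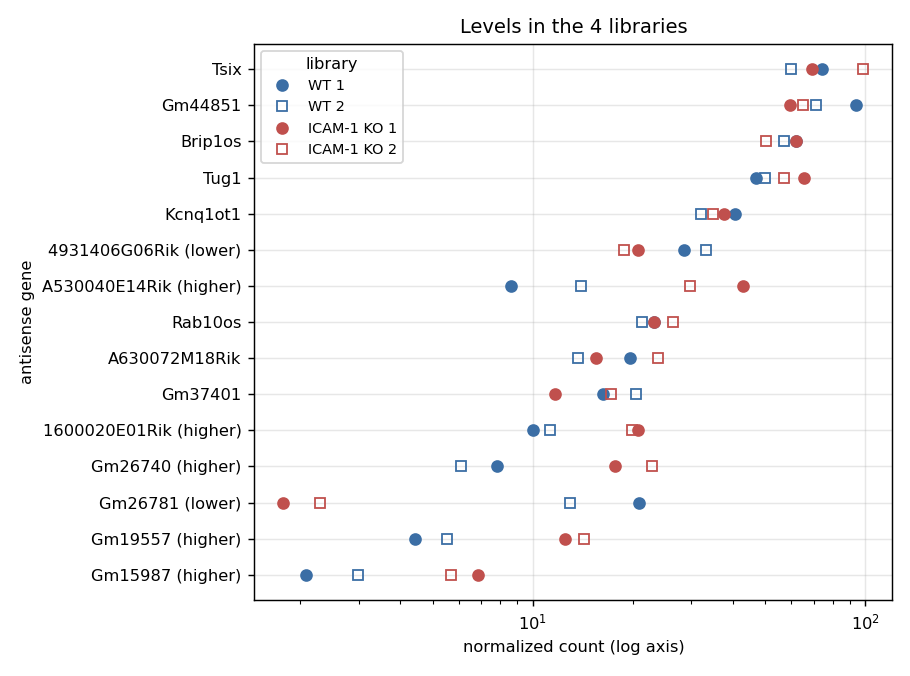
Normalized count (log axis) of the 10 most abundant antisense genes and of every one called between the genotypes. Blue marks are WT and red marks ICAM-1 KO libraries (filled circle replicate 1, open square replicate 2). Gm26781 is the one gene here whose WT values (20.9 and 12.9) stand far to the right of the others (1.78 and 2.29), while Kcnq1ot1 and Brip1os overlap.

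Of the 100 members, 79 passed the filter of the test, and the other 21 had a summed normalized count under 10. At an adjusted p under 0.05, 5 members were higher and 2 lower in the KO-labelled libraries. The shares of all 11711 genes called were 8.8% higher and 4.97% lower, against 6.33% and 2.53% of the members tested. With a change of at least 2-fold as well, 4 members were higher and 1 lower, where the shares over all genes were 4.94% and 0.538%. Without WT replicate 1, WT replicate 2 or ICAM-1 KO replicate 2 fewer members were called, and so were fewer of all genes. The groups did not overlap in 44 members tested (55.7%, against 59.5% of all genes), with the ICAM-1 KO values above WT in 27 and below in 17. The median log2 fold change was 0.10 for the members and 0.01 for all genes. The median standard error was 0.383 for the members and 0.166 for coding genes above the same threshold, so smaller changes were less detectable in the members. Each of the 7 genes called had a mean of at least 2 in both groups.

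Gm26781, a transcript of 2 exons on chromosome 1 (mm10, 136259407 to 136274406, plus strand), was the member with the largest change. It had 20.9 and 12.9 normalized counts in WT and 1.78 and 2.29 in the KO-labelled libraries, or 632 and 408 against 50.2 and 70.9 estimated counts. Both WT libraries were thus above both others. Gm26781 fell by 3.04 on the log2 scale (SE 0.391, adjusted p = 0.00239 by edgeR). It covers the whole of Gpr25, the gene of an orphan G protein-coupled receptor, near its own 5′ end, and its 3′ end crosses the 3′ end of Camsap2, whose protein caps the minus ends of microtubules. Both are on the minus strand. Camsap2 had 15.6 and 18.9 in WT and 16.2 and 14.0 in the others (log2 fold change -0.17, SE 0.212, adjusted p = 0.639). Gpr25 had 6.99 and 4.06 in WT and 1.0004 and 0.652 in the others, and fell by 2.77 on the log2 scale (SE 0.554, adjusted p = 0.0143). Exons of the opposite strand cover 37.0% of the exon bases of Gm26781, so the drops of Gm26781 and Gpr25 cannot be assigned to a strand.

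4931406G06Rik, on chromosome 16 (91044656 to 91056677), had 28.5 and 33.3 in WT and 20.7 and 18.8 in the KO-labelled libraries. The groups did not overlap, and the gene fell by 0.62 on the log2 scale (SE 0.172, adjusted p = 0.0447 by edgeR). This call was lost in each fit without 1 of the 4 libraries (adjusted p = 0.0737 to 0.179) and in 3 of 8 other settings (0.0541 to 0.0916). Of its exon bases 58.2% lie in exons of 4932438H23Rik, which had 8.69 and 11.5 in WT and 6.82 and 7.22 in the others (adjusted p = 0.272).

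A530040E14Rik lies on chromosome 1 (85105946 to 85114035, plus strand) within C130026I21Rik and across A530032D15Rik, genes of a repeated cluster related to the nuclear body protein Sp140. It had 8.60 and 14.0 in WT and 43.01 and 29.8 in the KO-labelled libraries. It rose by 1.71 on the log2 scale (SE 0.263, adjusted p = 0.00501 by edgeR), and the adjusted p ran from 1.25e-08 to 0.0654 over 8 other settings, of which limma alone lost the call. Both coding genes across it rose too. C130026I21Rik had 2.96 and 2.49 in WT against 7.54 and 7.27 (log2 fold change 1.48, adjusted p = 0.0238), and A530032D15Rik 1.28 and 1.89 against 6.72 and 5.10 (log2 fold change 1.93, adjusted p = 0.0197). In each of the 3 genes both KO-labelled libraries exceeded both WT libraries. The counts of such near-identical copies are uncertain, since reads that fit several genes were split among them.

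Gm26740 and Gm15987 lie inside immune receptor and ligand clusters, and neither has an exon base in exons of another strand. Gm26740 is on chromosome 10 (22187013 to 22302835, minus strand) within Raet1e and across part of H60b. Both encode ligands of the activating receptor NKG2D. It had 7.82 and 6.08 in WT and 17.6 and 22.9 in the KO-labelled libraries, a rise of 1.58 on the log2 scale (SE 0.259, adjusted p = 0.00676 by edgeR). Raet1e was at 0.0317 to 0.375 and H60b at 0.264 to 1.05 normalized counts, too low to test. Gm15987, on chromosome 6 (128951204 to 128975029, minus strand) within the C-type lectin gene Clec2g, had 2.08 and 2.98 in WT and 6.84 and 5.67 in the others. Its log2 fold change was 1.33 (SE 0.373, adjusted p = 0.0460 by edgeR), and the call was lost without each library in turn (adjusted p = 0.0676 to 0.167), and in 5 of 8 other settings (0.0598 to 0.106). Clec2g was at 0.0319 to 0.833. The estimated counts of Gm26740 (236, 191, 507 and 718) and Gm15987 (62, 93, 196 and 177) were whole numbers in all 4 libraries.

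Gm19557, on chromosome 19 (47512982 to 47516578, plus strand), lies inside Stn1, a telomere protection gene. It had 4.41 and 5.53 in WT and 12.5 and 14.2 in the KO-labelled libraries, a rise of 1.45 on the log2 scale (SE 0.277, adjusted p = 0.0120 by edgeR). Leaving out each library gave adjusted p-values of 0.00761 to 0.0635, and the call was lost without WT replicate 1. Stn1 had 34.7, 34.02, 29.4 and 33.5 in the same order, and was not called (adjusted p = 0.705). 1600020E01Rik, on chromosome 6 (86526247 to 86582466, plus strand), starts inside the RNA-binding protein gene Pcbp1, 74 bases from the start of Pcbp1, which runs in the opposite direction. It had 10.04 and 11.3 in WT and 20.7 and 19.9 in the others, a rise of 0.96 on the log2 scale (SE 0.208, adjusted p = 0.0190 by edgeR). The call was lost without WT replicate 1 (adjusted p = 0.0804) and without WT replicate 2 (0.0569), and with no filter on low counts (0.0573, the highest of 8 other settings, the lowest being 0.00156). Pcbp1 had 375 and 352 in WT and 294 and 319 in the others (log2 fold change -0.22, SE 0.0888, adjusted p = 0.135).

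**Figure D2:**
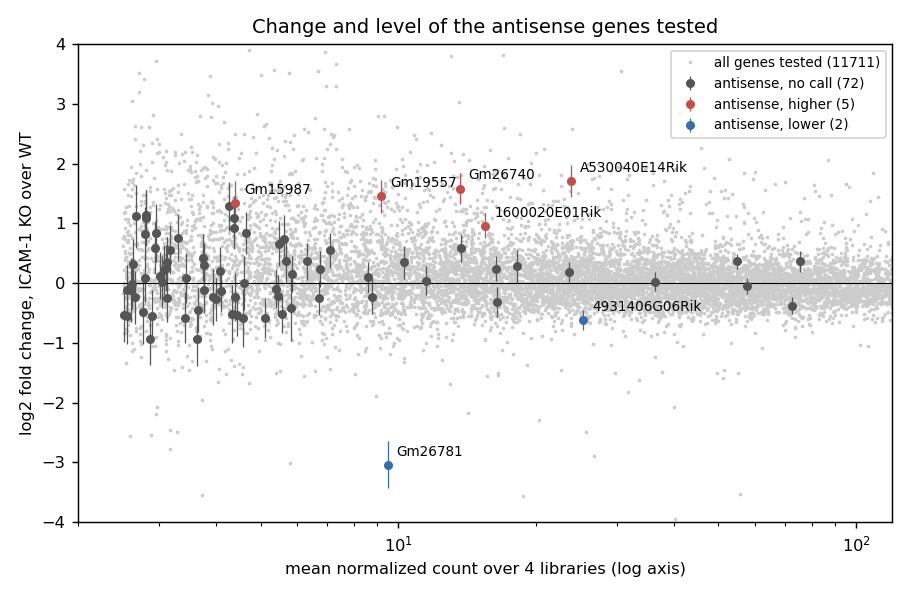
Log2 fold change of the ICAM-1 KO over the WT libraries (points, bars ± SE of the edgeR fit) against the mean normalized count (log axis) for the 79 antisense genes tested, over all genes tested in grey, some of which lie beyond the axes. Red and blue mark the 5 genes higher and the 2 lower at an adjusted p under 0.05. Gm26781 lies alone near -3 while most members lie between -1 and 1.

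The other 72 members tested were not called. The largest change among them was 1.28 on the log2 scale for Gm9917, over the tumour suppressor gene Rassf1, with 3.34 and 1.73 in WT and 6.71 and 5.31 in the KO-labelled libraries (SE 0.409, adjusted p = 0.0692 by edgeR). An unadjusted p under 0.05 was found in 16 members, 13 with positive and 3 with negative changes, and the share of all genes at that limit is not given here. Calls over all genes also leaned upward, with 1030 higher and 582 lower at an adjusted p under 0.05 by edgeR. Trmt61b, typed antisense although its symbol is that of a tRNA methyltransferase, had 11.6 and 10.6 in WT and 14.5 and 18.1 in the KO-labelled libraries (log2 fold change 0.58, SE 0.231, adjusted p = 0.125).

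Several members without a call lie across immune genes. Gm16008, which encloses Tnfrsf18, the gene of the costimulatory receptor GITR, had 4.77 and 6.37 in WT and 7.48 and 6.66 in the KO-labelled libraries, above WT in both, with an adjusted p of 0.466 by edgeR. Gm26885, at the 5′ end of the kinase gene Pim1, had 6.41 and 3.61 in WT and 6.43 and 6.29 in the others (adjusted p = 0.521). Gm15564, at the 3′ end of Parp9, an interferon-induced gene, had 3.16 and 4.40 in WT and 1.92 and 2.02 in the others, below WT in both (adjusted p = 0.181). Parp9 was below WT in both too, with 46.5 and 46.4 against 36.3 and 29.6 (adjusted p = 0.0616 by edgeR). Kpna1, the other coding gene across Gm15564, was not called (adjusted p = 0.244 by edgeR). Gm13546, inside the leukocyte adhesion regulator gene Cytip, had 2.64 and 3.48 in WT and 1.49 and 2.58 in the others (adjusted p = 0.463), and Cytip was not called either (adjusted p = 0.532).

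A coding partner, meaning a protein coding gene that overlaps on the other strand, was found for 90 members, and 11 had more than 1. The rest were Tsix, AC113595.1, Gm20400, 2810001G20Rik, BC018473, B630019A10Rik, Gm11423, Gm14718, 6330418K02Rik and Gm43079. In 86 pairs with known layout, 32 members lay inside the partner and 29 overlapped it with their 5′ ends, of which 17 had starts at most 1000 bases apart. A further 20 overlapped with their 3′ ends and 5 enclosed the partner. The median partner had a normalized count of 37.9. Per kilobase of exon the median member was at 36.2% of its partner, and 22 of 86 were above it. This share was 50.8% for members inside the partner, 36.9% where 5′ ends overlap and 19.4% where 3′ ends overlap. As the reads carry no strand, the counts of a member can hold reads of its partner, and how many was not tested.

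An estimated count that is not whole arises when reads that fit more than 1 gene are divided among them. Of the members whose exons overlap exons of the opposite strand alone, 69 of 71 (97.2%) had a count more than 0.01 from a whole number in at least 1 library. Of those that overlap no other exon, 1 of 15 (6.67%) did. Among coding genes above the same threshold the shares were 83.1% of 3068 and 37.7% of 6723. Exons overlapping on opposite strands thus went with divided counts in both gene types. Of the genes called, Gm26781, 4931406G06Rik, A530040E14Rik and Gm19557 had divided counts, whereas Gm26740, Gm15987 and 1600020E01Rik, with 75 overlapping bases, had whole ones. A whole count does not show the strand of the reads.

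**Figure D3:**
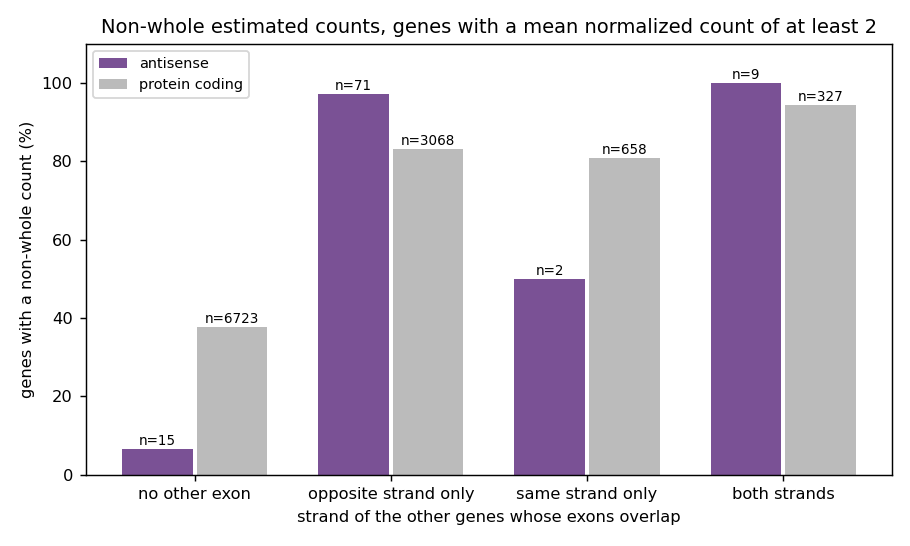
Share of genes with a non-whole estimated count (bars, %) by whether their exons overlap exons of other genes, and on which strand, for antisense genes (purple) and protein coding genes (grey) that reach the same mean level of 2. The number above each bar is the number of genes. For antisense genes the bar rises from 6.67% with no overlap to 97.2% with opposite-strand overlap alone.

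Of 78 partners tested, 5 were higher (6.41%) and 4 lower (5.13%) in the KO-labelled libraries, beside 8.8% and 4.97% of all genes. The partners that rose were C130026I21Rik, Afap1l1 (log2 fold change 1.40, adjusted p = 0.00346), which binds actin filaments, Ece1 (0.92, adjusted p = 0.00271), which makes endothelin, the transcription factor gene Sp3 (0.69, adjusted p = 0.0106) and Ifrd1 (0.59, adjusted p = 0.00959). Those that fell included Il5 (-0.76), Furin (-0.58) and the immunoproteasome subunit gene Psmb8 (-0.35). The members across Ece1, Sp3, Ifrd1, Furin and Psmb8 were tested and had no call. Without WT replicate 1 or WT replicate 2 fewer partners were called, and so were fewer of all genes.

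Il5, the eosinophil growth factor and a marker of ILC2s, fell by 0.76 on the log2 scale (SE 0.101, adjusted p = 0.00274 by edgeR), from 1039 and 1252 to 668 and 656 normalized counts. Gm12214 lies on the strand opposite to Il5 on chromosome 11 (53723953 to 53724618), and every one of its 417 exon bases lies in exons of Il5. It had 3.43 and 3.16 in WT and 0.942 and 1.44 in the KO-labelled libraries, below WT in both, and stayed under the filter of the test. It amounted to 0.248% of the level of Il5, and with complete overlap and no strand its counts cannot be told apart from those of Il5.

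Flicr, on the X chromosome (7573600 to 7581027), runs in the direction of Foxp3 and crosses Ppp1r3f on the other strand. It had 1.01 and 2.61 in WT and 3.44 and 2.48 in the KO-labelled libraries, so that the groups overlapped, and it was not tested. Foxp3 had 42.4 and 53.9 in WT and 157 and 181 in the others, a rise of 1.84 on the log2 scale (SE 0.138, adjusted p = 0.000224 by edgeR). Ppp1r3f had 6.47 and 4.97 in WT and 3.38 and 2.56 in the others, and was not called (adjusted p = 0.126).

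**Figure D4:**
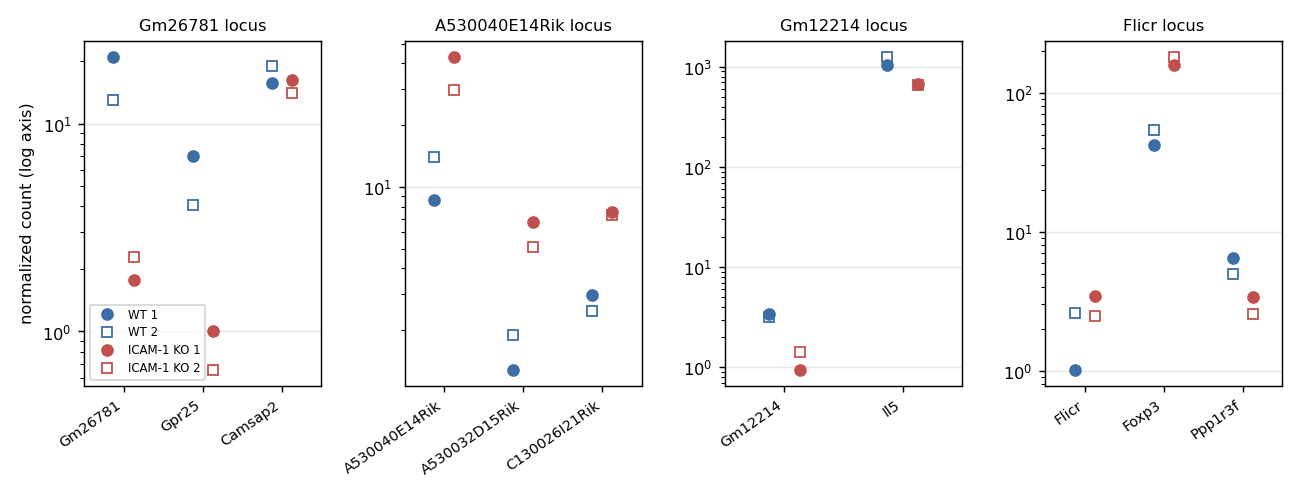
Normalized counts (log axes, scaled for each panel) of 4 antisense genes and the coding genes that overlap them, in the WT (blue) and ICAM-1 KO (red) libraries (filled circle replicate 1, open square replicate 2). At the Gm26781 locus Gpr25 is lower with Gm26781 while Camsap2 is not, at the A530040E14Rik locus the 3 genes are higher, Il5 and Gm12214 are lower, and Flicr overlaps between genotypes while Foxp3 is higher.

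To ask whether a member moved apart from its partner, the log2 ratio of member to partner, each normalized count plus 1, was compared between genotypes in the 59 pairs in which both genes passed the filter. Adjusted over these pairs in limma, 5 ratios were higher (8.47%) and 6 lower (10.2%), and 17 had an unadjusted p under 0.05. This fit pooled most of the variance over the 59 pairs, so the standard errors were nearly alike. The p-value of a ratio thus does not measure the spread of that pair alone. In limma fits without 1 of the 4 libraries 0 were called, each of the 11 calls being lost in each of them, with 10 to 13 ratios at an unadjusted p under 0.05. The smallest adjusted p there was 0.0539, for Gm26781 without ICAM-1 KO replicate 2.

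The ratio of Gm26781 to Camsap2 fell by 2.35 on the log2 scale (SE 0.290, adjusted p = 3.81e-09 by limma), from a mean of -0.06 in WT to -2.41. The ratio of Gm19557 to Stn1 rose by 1.40 (SE 0.275, adjusted p = 0.00014) and that of 1600020E01Rik to Pcbp1 by 1.12 (SE 0.275, adjusted p = 0.00161). In these 3 pairs the member itself was called as well and its partner was not. Camsap2 was the partner of Gm26781 by the longest overlap. Gpr25, which Gm26781 covers whole, fell by 2.77 on the log2 scale (adjusted p = 0.0143 by edgeR). The ratio of Gm26781 to Gpr25 was not tested. The ratio of 4930481A15Rik to Drap1, which encodes a corepressor of transcription, rose by 1.12 (SE 0.277, adjusted p = 0.00161). 4930481A15Rik had 2.39 and 3.27 in WT and 5.83 and 5.99 in the KO-labelled libraries, with no call of its own (adjusted p = 0.0761).

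For Sp3os, which starts inside Sp3, 1022 bases from the start of Sp3, the partner and not the member was called by itself. Sp3os had 7.30 and 7.37 in WT and 6.27 and 5.90 in the KO-labelled libraries, while Sp3 had 52.1 and 64.2 against 95.1 and 88.8. The ratio of Sp3os to Sp3 fell by 0.89 (SE 0.275, adjusted p = 0.0144 by limma), and was called in 3 of 4 other settings (adjusted p up to 0.0591).

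In 5 further pairs with a called ratio neither gene was called alone. The ratio was higher for Gm34006 over Scml4, and lower for 1700097N02Rik over the axonemal dynein gene Dnah8, 1810034E14Rik over the phosphatase gene Cdc14b, Gm4673 over the lipoprotein receptor gene Lsr, and Zfp335os over the zinc finger gene Zfp335. In the 4 other settings with all libraries the ratio of 1700097N02Rik was called in 4, that of 1810034E14Rik in 3 and those of Gm34006 and Gm4673 in 2 each, while that of Zfp335os was called in 0 (adjusted p = 0.0511 to 0.0957, limma). The ratio of Gm4673 changed by -0.89 on the log2 scale with all libraries, by -0.37 without WT replicate 1 and by -1.40 without WT replicate 2. Dnah8 had 3.00 and 5.58 in WT and 10.5 and 8.12 in the KO-labelled libraries, and Cdc14b 3.93 and 2.22 against 6.53 and 6.34, so that the groups did not overlap for either partner. 1700097N02Rik (7.70 and 11.3 against 8.47 and 7.59) and 1810034E14Rik (3.83 and 1.65 against 3.09 and 1.88) overlapped between the groups.

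**Figure D5:**
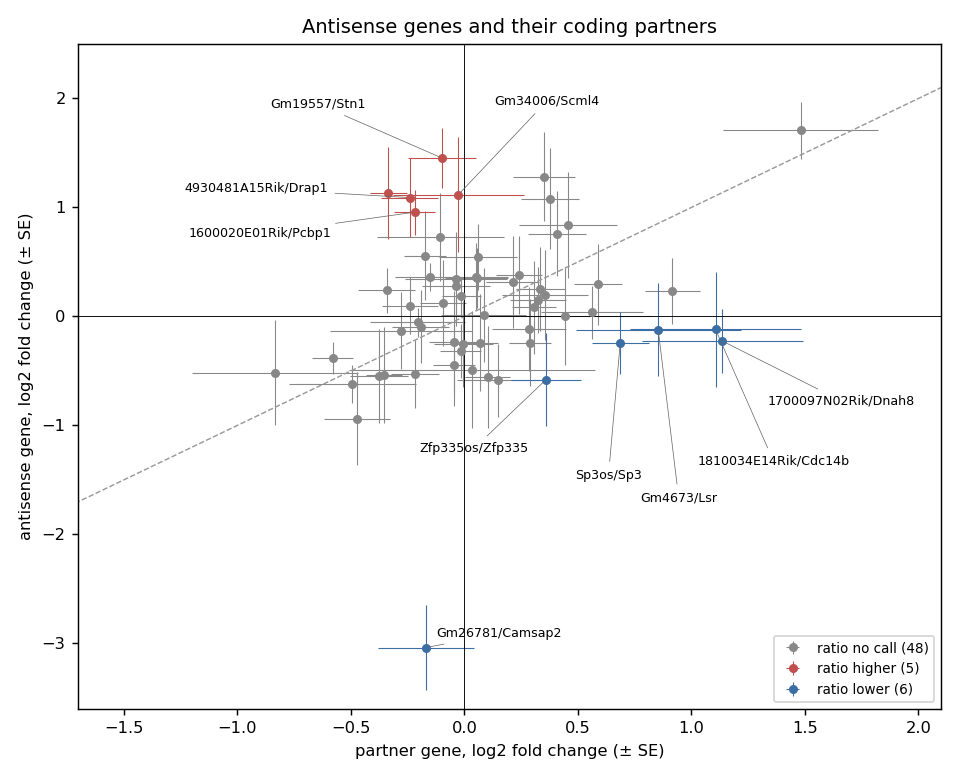
Log2 fold change of each antisense gene (vertical axis) against that of its coding partner (horizontal axis) in the 59 pairs tested, ICAM-1 KO over WT, with bars of ± SE from edgeR. The dashed line marks equal change, red and blue the 5 pairs with a higher and the 6 with a lower ratio, most of them named. Gm26781/Camsap2 lies farthest below the line, and Gm19557/Stn1 lies above it at a partner change near 0. Gpr25, the other coding gene across Gm26781, is not plotted.

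Over the 59 pairs the fold changes of member and partner had the same sign in 34 and opposite signs in 25. Across these pairs Pearson's r of the log2 fold changes was 0.243 and Spearman's rho 0.206, as a description over genes that share the 4 libraries and, in overlapping exons, their reads. In the 26 pairs with at least 20% of the member's exon bases in exons of the opposite strand, 15 had the same sign, and in 32 pairs under 20% it was 18.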

How the data were processed

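RNA of sorted lung ILC2s was sequenced in 2 WT and 2 ICAM-1 KO libraries, grouped by the sample labels. The authors made cDNA with a SMARTer low-input kit, aligned them with STAR (mm10, GENCODE M20), and the deposited values are estimated counts for 22558 genes that the authors obtained with the E/M method of Partek. The labels list CASAVA 1.8.2 and STAR 3.5.3, whereas the paper gives another version of STAR. The deposited normalized count is a signal that the authors made by upper quartile scaling, equal to the count plus 1 times a factor per library. Whether strand was used in counting is not given in the sources used here. The members, gene lists and tests were chosen with earlier results of these data known.

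Counts were rounded and tested with edgeR 4.0.16 in R 4.3.3 (quasi-likelihood, legacy set to FALSE, upper quartile factors, no covariate) over the 11711 genes whose normalized counts averaged at least 1 and summed to at least 10. Two-sided p-values were adjusted over all of them by Benjamini-Hochberg, and calls are at 0.05. Ratios to the partner (the coding gene with the longest overlap on the other strand) were tested with limma 3.58.1. Alternatives were TMM factors, DESeq2 1.42.0, limma, the older edgeR method, other filters and leaving out each library. The fits were tested on simulated data with the levels of all genes tested. This does not show how they perform on the weakly expressed members alone. Exons, known for 97 of 100 members, are those of GENCODE M21, matched by name and coordinates. Ends of genes are the deposited ends minus 1 base. Named genes are Icam1, the 10 most abundant members, all members called, those across list genes, the 3 members on each side of the threshold, ratios called and their partners. Tsix's partner Xist, Gpr25, A530032D15Rik, H60b, Foxp3, Flicr, Trmt61b, Gm9917, Gm16008, Gm26885, Gm15564, Gm13546, Gm47079 and their partners were added after their values were seen. A called ratio and its partner gene are not reported here. The reads carry no molecular identifiers, and p-values measure the spread between pools, for the ratios with a variance mostly pooled over the pairs.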

Additional observations from a re-analysis of the deposited data

How the results depend on the processing

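Of the 7 antisense genes called, Gm26781 and Gm26740 kept their call in all 8 alternatives and without each library. With no filter on low counts 3 members were higher and 1 lower, and with limma on log2(normalized count + 1) again 3 and 1. Over all genes these settings called 334 higher and 201 lower, and 356 and 53, against 1030 and 582 in the main fit. With the replicate block 4 members were higher and 1 lower, beside 1077 and 638 of all genes. The replicate numbers are shared between genotypes but the deviations of equally numbered libraries correlated at -0.06, so they were not taken as pairs, and the block moved the calls of partners from 5 and 4 to 7 and 6 and those of ratios from 5 and 6 to 4 and 5. Leaving out each library gave 2 to 5 members higher and 1 to 2 lower, 2 to 6 partners higher and 2 to 5 lower, 0 ratios in either direction (10 to 13 at an unadjusted p under 0.05), and 34 to 56 marker genes higher. Partners called were 9 higher and 7 lower with DESeq2, 3 and 0 with limma (11 lower at an unadjusted p under 0.05), and 2 higher with no filter. Over all genes DESeq2 called 1261 higher and 930 lower. With edgeR log2 CPM and TMM factors 3 ratios were lower. Kcnq1ot1, not called, changed sign with filterByExpr (-0.011) and with no filter (-0.026) and ranged from -0.14 to 0.20 on the log2 scale without each library. So did Brip1os (-0.20 to 0.078), A630072M18Rik (-0.088 to 0.56), 1700097N02Rik (-0.48 to 0.086) and 1810034E14Rik (-0.62 to 0.62), none of them called. The median member had a mean count of 112 per library, and calls at other depths were not tested.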
